A study of Mus musculus with 15 samples.

Results

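Glucose crosses cell membranes mainly through facilitative transporters encoded by the Slc2a (GLUT) genes, and 6 of them were followed here across sorted plasma cells: Slc2a1, Slc2a3, Slc2a4, Slc2a6, Slc2a8 and Slc2a9. They were chosen by gene symbol, from 12 Slc2a genes among 22339 genes in the data. RNA was sequenced from plasma cells, which secrete antibody, of untreated, unimmunized male C57Bl6/N mice aged 8 to 12 weeks. All cells were CD138-high, Ly6g- and CD11c-. Spleen cells were divided by B220, a form of CD45 typical of B cells, and by 2NBDG, a fluorescent glucose analogue that labels cells by how much they take up. Spleen cells without the label are called B220+2NBDG- or B220-2NBDG-, and those that took it up B220+2NBDG+ or B220-2NBDG+. Bone marrow gave a single group, BMPC, which was B220- and had taken up 2NBDG. Each of the 5 groups had 3 biological replicates, and each subset held about 30000 double-sorted cells. The labels do not say whether cells of several mice were pooled or whether groups came from the same mice, so p-values measure the spread between these libraries.

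The members differ in where they sit and what they carry. GLUT1 (Slc2a1) and GLUT3 (Slc2a3) stand on the cell surface and carry basal glucose import in many cells, lymphocytes among them. GLUT4 (Slc2a4) is the insulin-responsive transporter of muscle and fat, kept in storage vesicles until insulin brings it to the surface. GLUT6 (Slc2a6) and GLUT8 (Slc2a8) are held mostly on internal membranes such as lysosomes, and GLUT9 (Slc2a9) is best known as a urate transporter. Since transport protein can move between vesicles and the surface, transcript level and uptake need not run together.

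The libraries held 17270616 to 24826374 estimated reads, of which 4399541 to 9910772 lay outside the immunoglobulin genes. Immunoglobulin transcripts took 91.1% to 96.6% of the deposited TPM (transcripts per 1000000), so TPM is given here after removing those genes and rescaling the rest to 1000000. Plasma cell markers such as Jchain, Xbp1, Irf4, Prdm1 and Sdc1 were present as labelled, and all 10 listed had group means above 1 TPM in all 5 groups. B cell markers were present too, with a summed level of 17501 to 37686 TPM. Most of that sum was Cd74, at group means of 19050 to 30183 TPM. Cd79b came next at 861 to 1149 TPM in group means, while Pax5 had 2.06 to 17.7 TPM and Cd22 11.9 to 165 TPM. Neutrophil markers, despite the Ly6g- gate, summed to 5678 to 9420 TPM in BMPC against 18.7 to 463 TPM in the 12 spleen libraries. Among other cells, monocyte, macrophage and dendritic cell markers summed to 804 to 7725 TPM, T cell markers to 33.7 to 515 TPM, erythroid markers to 82.1 to 6750 TPM, and megakaryocyte and platelet markers to 2.78 to 72.5 TPM. In the first of these lists Ly6c2 alone had group means of 751 to 5790 TPM, and the other 11 markers summed to 143 to 1988 TPM. In such bulk samples, fewer cells of a type and less RNA per cell cannot be told apart.

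Slc2a6 had the highest TPM of the 6 members in 14 of the 15 libraries. In the exception, BMPC replicate 2, it had 227 estimated reads against 137 for Slc2a1. It lies at chr2:27021363-27027998 on the minus strand (GRCm38, GENCODE M21). In B220+2NBDG- it read 42.8, 40.6 and 31.5 TPM, and in B220-2NBDG- 31.6, 34.7 and 33.0 TPM. The B220+2NBDG+ libraries read 37.0, 26.8 and 24.7 TPM, the B220-2NBDG+ libraries 25.9, 23.0 and 17.9 TPM, and the BMPC libraries 31.0, 14.95 and 38.7 TPM. The order of the group means ran from B220+2NBDG- (38.3 ± 5.97 TPM, SD, n = 3) down to B220-2NBDG+ (22.3 ± 4.07 TPM, SD, n = 3), and the libraries of every pair of neighbours in that order overlapped. Within BMPC, replicate 2 had the lowest TPM of all 15 libraries and replicate 3 the third highest. The short transcript Slc2a6-206 had 0 TPM in replicate 2 and 15.7 TPM, on 8.53 estimated reads, in replicate 3. As estimated reads per 1000000 outside immunoglobulin genes, these replicates read 38.3 and 54.4. On that scale B220-2NBDG+ replicate 2 was the lowest, at 36.7. Slc2a6 made up 60.8% ± 3.54 (SD, n = 3) of the summed TPM of the 6 members in B220+2NBDG- and 46.1% ± 5.54 (SD, n = 3) in B220-2NBDG+.

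Slc2a1, the widely expressed basal glucose transporter, came next by mean TPM in all groups. Its gene spans chr4:119108711-119137983 on the plus strand. The B220+2NBDG- libraries were tight at 12.6, 11.3 and 12.2 TPM, and the B220-2NBDG- libraries read 16.1, 14.4 and 23.4 TPM. In B220+2NBDG+ it read 18.4, 14.3 and 10.4 TPM, in B220-2NBDG+ 19.9, 14.2 and 14.6 TPM, and in BMPC 11.7, 17.9 and 13.9 TPM. Group means went from 17.95 ± 4.82 TPM (SD, n = 3) in B220-2NBDG- down to 12.0 ± 0.656 TPM (SD, n = 3) in B220+2NBDG-, and each group overlapped its neighbour in that order. As estimated reads per 1000000 outside immunoglobulin genes, the BMPC mean of Slc2a1, 22.15, was just below that of Slc2a3, 22.55.

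Slc2a3, the high-affinity transporter known from neurons and activated lymphocytes, lies at chr6:122727809-122801640 on the minus strand. Its values were 7.40, 16.4 and 4.55 TPM in B220+2NBDG-, and 4.92, 4.21 and 11.6 TPM in B220-2NBDG-. They were 11.9, 8.08 and 7.02 TPM in B220+2NBDG+, 8.26, 2.15 and 9.75 TPM in B220-2NBDG+, and 12.4, 8.996 and 8.88 TPM in BMPC. No group stood clear of its neighbours on this scale.

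**Figure D1:**
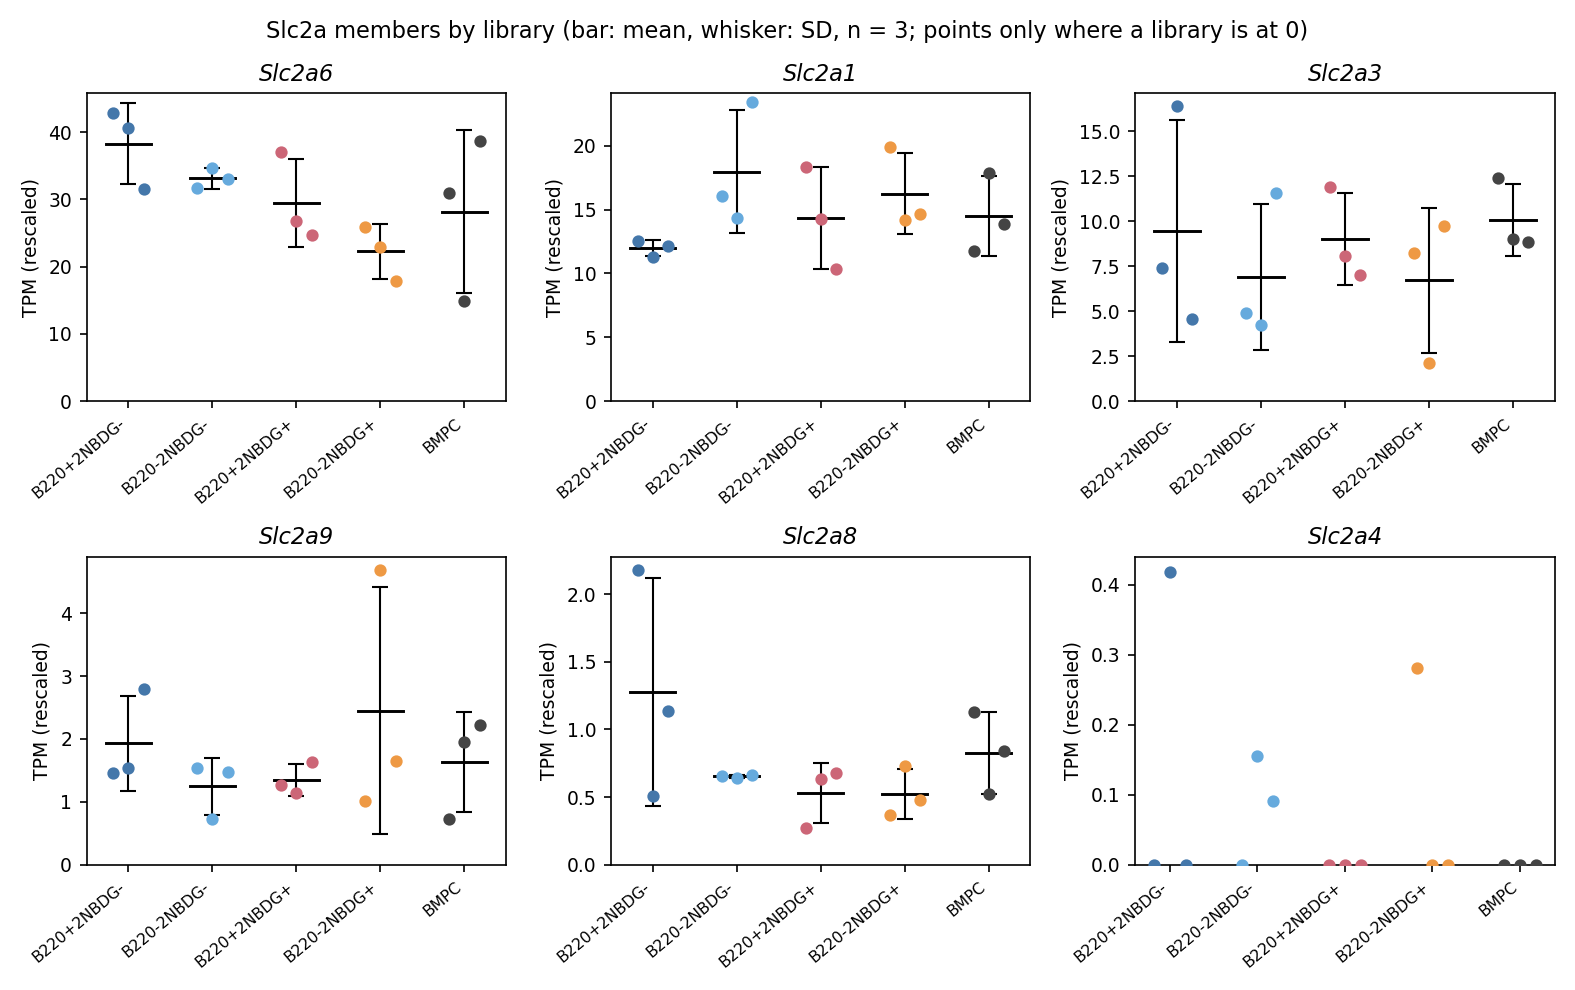
TPM of each member in the 15 libraries, rescaled without immunoglobulin genes, for the 5 groups on the horizontal axis (points: libraries, bar: mean, whisker: SD, n = 3; for Slc2a4, which is at 0 in 11 libraries, points only). Slc2a6 spans 14.95 to 42.8 TPM, and Slc2a4 never exceeds 0.419 TPM.

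The other 3 members were low, and Slc2a4 was at the lower limit of detection. Slc2a9 rested on 8 to 34 estimated reads per library. Slc2a9, the urate transporter gene (chr5:38349273-38503143, minus strand), ranged from 0.723 to 4.68 TPM with a median of 1.54 TPM. Its highest library was B220-2NBDG+ replicate 2, where the other two of that group read 1.02 and 1.65 TPM. Slc2a8 (chr2:32972990-32982083, minus strand) ranged from 0.273 to 2.18 TPM. Only 3 libraries reached 1 TPM for Slc2a8, at 2.18 and 1.14 TPM in B220+2NBDG- and 1.13 TPM in BMPC, so it passed the expression filter with none to spare and on 4 to 19 estimated reads per library. Slc2a4 (chr11:69942539-69948188, minus strand) was listed at 0 in 11 of 15 libraries and rested on about 2 estimated reads in each of the other 4, at 0.0904 to 0.419 TPM. A count of 0 allows up to 3 reads, or 0.303 to 0.682 reads per 1000000 outside immunoglobulin genes across the libraries, and that limit covers counting error only. Slc2a4 failed the filter, so 5 of the 6 members were tested.

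The sort on 2NBDG asks whether cells that take up more glucose analogue carry more transporter transcript. None of the tested members passed the test in either direction on this sort. Over both B220 strata, limma with Benjamini-Hochberg adjustment called 0 of the 5 members, where 6.46% of the 11246 genes tested were called. At an unadjusted p under 0.05, as 20.1% of all genes tested were, there was 1 member, Slc2a6, and it was lower in 2NBDG+ cells: the difference was -0.47 ± 0.20 (SE) on the log2(TPM + 1) scale, with a 95% interval of -0.90 to -0.05 and an adjusted p of 0.197. The 2NBDG+ spleen libraries of Slc2a6 ranged from 17.9 to 37.0 TPM and the 2NBDG- libraries from 31.5 to 42.8 TPM, so that, read without pairing, B220+2NBDG+ replicate 1 alone overlapped the other side. Between libraries of the same replicate number Slc2a6 was lower with 2NBDG in 6 of 6 pairs, and 14.7% of genes tested had all 6 pairs in one direction. The labels do not say what a replicate number shares. No member had separate libraries in both strata, where 5.53% of genes did.

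For Slc2a1 the difference was 0.04, with a 95% interval of -0.31 to 0.40, so a change of either sign of up to about that size is within the data. For Slc2a3 it was -0.02, but the interval of -0.77 to 0.73 is wide. Slc2a8 had -0.32 (interval -0.69 to 0.05) and Slc2a9 0.10 (interval -0.44 to 0.63). Summed over the 6 members, the level was 63.1 ± 9.71 TPM (SD, n = 3) in B220+2NBDG- and 48.3 ± 6.47 TPM (SD, n = 3) in B220-2NBDG+, with the other groups between. The median difference of the 5 tested members was -0.02 and that of all genes tested was -0.04.

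Within B220+ cells 0 of 5 members were called, against 2.2% of genes, and within B220- cells 0 of 5, against 2.79%. The Slc2a6 libraries did not overlap within B220- cells, at 31.6 to 34.7 TPM without and 17.9 to 25.9 TPM with 2NBDG uptake. This was the only member with separate libraries in either stratum. Of all genes tested, 21.1% had separate libraries within B220- cells and 17.6% within B220+ cells. The Slc2a6 difference was -0.57 within B220- cells (95% interval -1.17 to 0.04, adjusted p = 0.465), against -0.38 (interval -0.98 to 0.23) within B220+ cells. The difference between the strata was tested as an interaction, in which 0 of 5 members and 0.0267% of genes were called. For Slc2a9 the gap between strata was 0.79 with a 95% interval of -0.28 to 1.86, which includes B220-2NBDG+ replicate 2 at 4.68 TPM. It was 0.36 without that library and -0.10 on the scale of estimated reads.

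Markers of other cells moved along the same sort. Monocyte, macrophage and dendritic cell markers summed to 1856 to 3757 TPM in the 2NBDG+ and 804 to 1775 TPM in the 2NBDG- spleen libraries, with 1 of 12, Ly6c2, called higher. Without Ly6c2 the other 11 overlapped, with sums of 242 to 1988 TPM in 2NBDG+ and 143 to 731 TPM in 2NBDG- libraries. The median difference of the 12 was 1.29, against -0.04 for all genes. T cell markers summed to 33.7 to 89.4 TPM in 2NBDG+ and 85.5 to 515 TPM in 2NBDG- spleen libraries, with 3 of 8 tested called lower. Their part in the values of Slc2a6 and the other members was not tested. Among plasma cell markers 2 of 10 were called higher. For B cell and neutrophil markers it was 0 of 10 each, for erythroid markers 0 of 8 tested, and for megakaryocyte and platelet markers 0 of 2 tested.

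**Figure D2:**
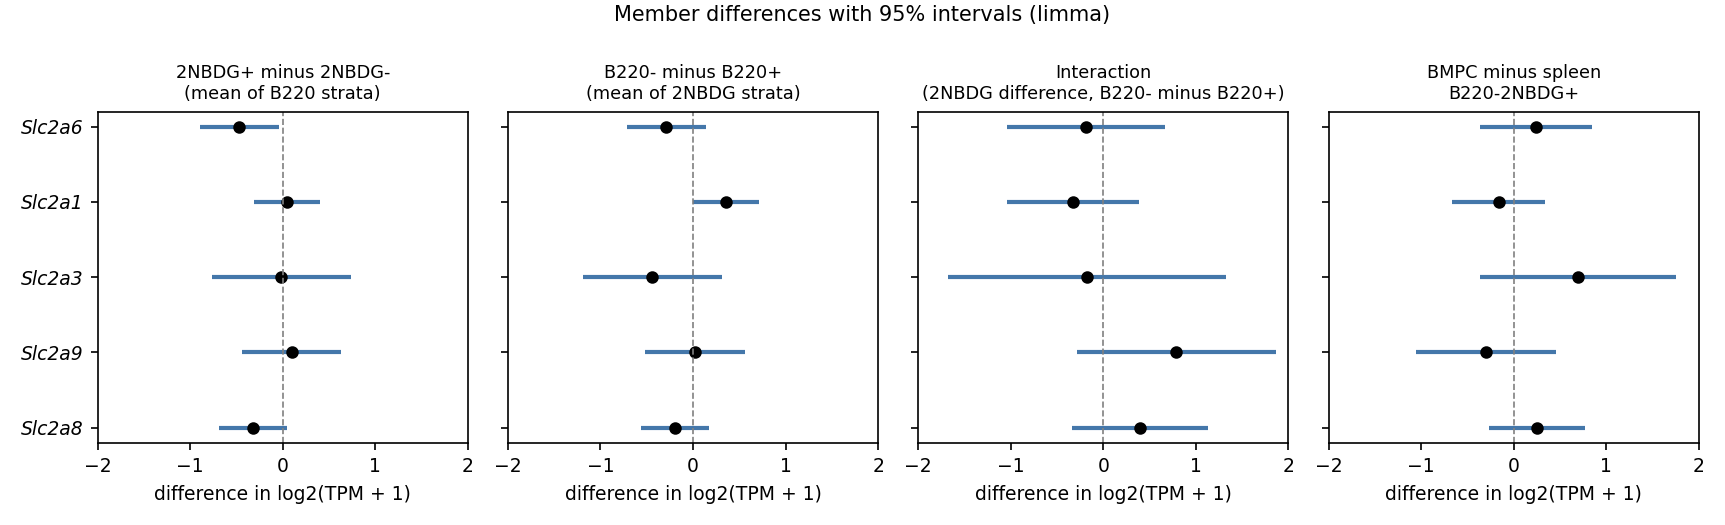
Difference in log2(TPM + 1) for the 5 tested members in 4 comparisons (dot: estimate, line: 95% interval from limma, dashed line: no difference). Of the 20 intervals drawn, only that of Slc2a6 in the 2NBDG comparison, -0.90 to -0.05, stays clear of 0, and no member passed the adjusted test.

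These results depend on setting the immunoglobulin genes aside. On the TPM as deposited, limma called 3 of the 5 members lower in 2NBDG+ cells over both strata, beside 73.7% of all genes: Slc2a6 (-0.72, adjusted p = 0.000181), Slc2a1 (-0.28, adjusted p = 0.00926) and Slc2a8 (-0.07, adjusted p = 0.0276). Within B220+ cells it called Slc2a6, Slc2a8 and Slc2a9 lower (66% of genes) and within B220- cells 1, Slc2a6 (23.4%). For B220 it called 1 member, Slc2a6, on average (61%), Slc2a6, Slc2a8 and Slc2a9 within 2NBDG- cells (57%) and 0 within 2NBDG+ cells (1.94%). It called 0 in the interaction (0.711%) and in bone marrow (0.889%), and Slc2a6 and Slc2a8 over all groups (76.7%). Slc2a8 passed the filter only through libraries of B220+2NBDG- and BMPC, and its deposited group means were 0.019 to 0.109 TPM. Since the filter let Slc2a8 in through a group where it was high, its calls are no support for a difference. On the deposited scale the 2NBDG difference of all genes had a median of -0.21, and the immunoglobulin share was 91.1% to 94.8% of TPM in the 2NBDG- and 95.2% to 96.6% in the 2NBDG+ spleen libraries. The sign of the Slc2a1 difference turned with the scaling.

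B220 is lost as plasma cells mature, and the second spleen sort compares cells with and without it. Averaged over 2NBDG, 0 of 5 members were called and 8.65% of genes were, and no member had separate libraries in both 2NBDG strata, against 7.59% of genes. Slc2a1 was nearest, at 0.35 higher in B220- cells (95% interval -0.002 to 0.71, adjusted p = 0.214). Slc2a3 had -0.44 (interval -1.19 to 0.31) and Slc2a6 -0.29 (interval -0.71 to 0.14). Within 2NBDG- cells, Slc2a1 read 14.4 to 23.4 TPM without and 11.3 to 12.6 TPM with B220, and these libraries did not overlap. The difference was 0.52 with a 95% interval of 0.01 to 1.02 and an adjusted p of 0.243. It was the only member with separate libraries there, where 23.6% of all genes had them, and no member was called against 5.24% of genes. On the scale of estimated reads the Slc2a1 libraries of these groups overlapped, at 24.5 to 32.5 and 20.1 to 25.1 per 1000000 reads outside immunoglobulin genes. Within 2NBDG+ cells the Slc2a1 difference was 0.19 (interval -0.31 to 0.69), with 0 of 5 members and 1.34% of genes called (151 genes, against 228 and again 0 members with the replicate block), and no member's libraries were separate in TPM (22.1% of genes). Among B cell markers 4 of 10 were called lower in B220- cells, while 2 of 10 plasma cell markers and 1 of 10 neutrophil markers were called higher, and their part in the member values was not tested.

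BMPC and spleen B220-2NBDG+ cells share the sort phenotype and differ in tissue. On rescaled TPM 0 of 5 members were called, against 1.92% of genes. The estimate furthest from 0 was that of Slc2a3, 0.69 higher in BMPC with a 95% interval of -0.37 to 1.75 and an adjusted p of 0.508. Slc2a6 had 0.24 (interval -0.36 to 0.85) and Slc2a1 -0.16 (interval -0.66 to 0.34). No member had separate libraries in TPM, where 23.7% of genes did. Over all 5 groups at once, the moderated F test called 0 of 5 members, with adjusted p from 0.252 for Slc2a6 to 0.709 for Slc2a9, while 19.1% of genes were called. Over the 8 contrasts, 2 of the 40 member estimates and 15.5% of those of all genes tested had an unadjusted p under 0.05. The 2 were those of Slc2a6 with 2NBDG uptake and of Slc2a1 within 2NBDG- cells.

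The values of Slc2a3 depended on which of its transcripts were counted. Its 6 listed transcripts include Slc2a3-201, the full-length coding transcript of 3959 nt, and a 315 nt transcript annotated as a target of nonsense-mediated decay. Salmon gave the short one an effective length of 66.3 nt, so a few reads weigh heavily in TPM. The short transcript took 28.9% to 66.4% of the gene's TPM in the group means but 1.52% to 6.20% of its estimated reads, at most 6.74 reads in any library. The full-length transcript alone read 1.28, 1.25 and 1.20 TPM in spleen B220-2NBDG+ and 3.80, 4.69 and 3.403 TPM in BMPC. These BMPC and B220-2NBDG+ libraries did not overlap, and the B220+2NBDG+ libraries lay between them at 2.57, 2.64 and 2.58 TPM. The B220+2NBDG- libraries (2.36, 4.45 and 1.41 TPM) and the B220-2NBDG- libraries (1.49, 2.84 and 3.55 TPM) overlapped those of BMPC. By gene TPM, 23.7% of genes tested had separate libraries between BMPC and B220-2NBDG+, and the share among single transcripts was not counted.

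Counted as estimated reads per 1000000 outside the immunoglobulin genes, an alternative chosen after the values were seen, Slc2a3 read 6.52, 6.42 and 7.89 in B220-2NBDG+ and 23.4, 25.2 and 19.1 in BMPC. That is 35.9 to 39.9 estimated reads per library against 83.8 to 151. These libraries did not overlap, and 21.9% of genes tested on this scale had separate libraries between these groups. The difference on this scale was 1.56 ± 0.34 (SE), with a 95% interval of 0.84 to 2.29 and an adjusted p of 0.0228 by limma. Slc2a3 was the 1 member called, beside 2.6% of genes, and the F test over the 5 groups called it too (adjusted p = 0.0333, against 25.1% of genes). With transcripts of at least 500 nt only, in TPM, the difference was 1.46 but the adjusted p was 0.0771. On rescaled TPM of all transcripts the difference was not called. On the scale of estimated reads the spleen B220-2NBDG+ libraries also lay below those of B220+2NBDG+ (13.0, 13.7 and 13.4) and of B220-2NBDG- (8.40, 15.5 and 19.6) for Slc2a3, but neither difference passed the test (adjusted p = 0.306 and 0.182). Of all genes on this scale, 21.7% had separate libraries in the first of these comparisons and 26.4% in the second. The B220+2NBDG- libraries, at 13.9, 25.5 and 7.29, overlapped them.

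No other member was called on estimated reads. For 2NBDG, 0 members were called on average (9.26% of genes), within B220+ cells (2.5%) and within B220- cells (4.48%). For B220, 0 were called on average (11.6%), within 2NBDG- cells (8.24%) and within 2NBDG+ cells (1.72%). In the interaction 0 members and 0 genes were called. Slc2a6 came nearest, at -0.41 ± 0.13 (SE) with 2NBDG uptake and an adjusted p of 0.0666 by limma, and its libraries were separate within B220- cells on this scale too, at 50.3 to 64.5 without and 36.7 to 45.8 with uptake, a separation shared by the 26.4% of genes given above.

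Beside the Slc2a3 difference between BMPC and spleen, neutrophil markers summed to 5678 to 9420 TPM in BMPC and to 69.6 to 343 TPM in spleen B220-2NBDG+, with 7 of 10 called higher in BMPC and no marker at 0 throughout either group. Monocyte, macrophage and dendritic cell markers summed to 4720 to 7725 TPM against 2014 to 3084 TPM, with 1 of 12 called higher. That was Ly6c2, at a mean of 5790 TPM in BMPC and 1870 TPM in spleen. The other 11 summed to 478 to 860 TPM against 242 to 1000 TPM, and the median difference of the list was -0.18, as for all genes. T cell markers had 1 of 8 tested called higher. As a list they summed to a mean of 50.8 TPM in BMPC and 46.2 TPM in spleen B220-2NBDG+, with a median difference of -0.10. Their part in the Slc2a3 difference was not tested.

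**Figure D3:**
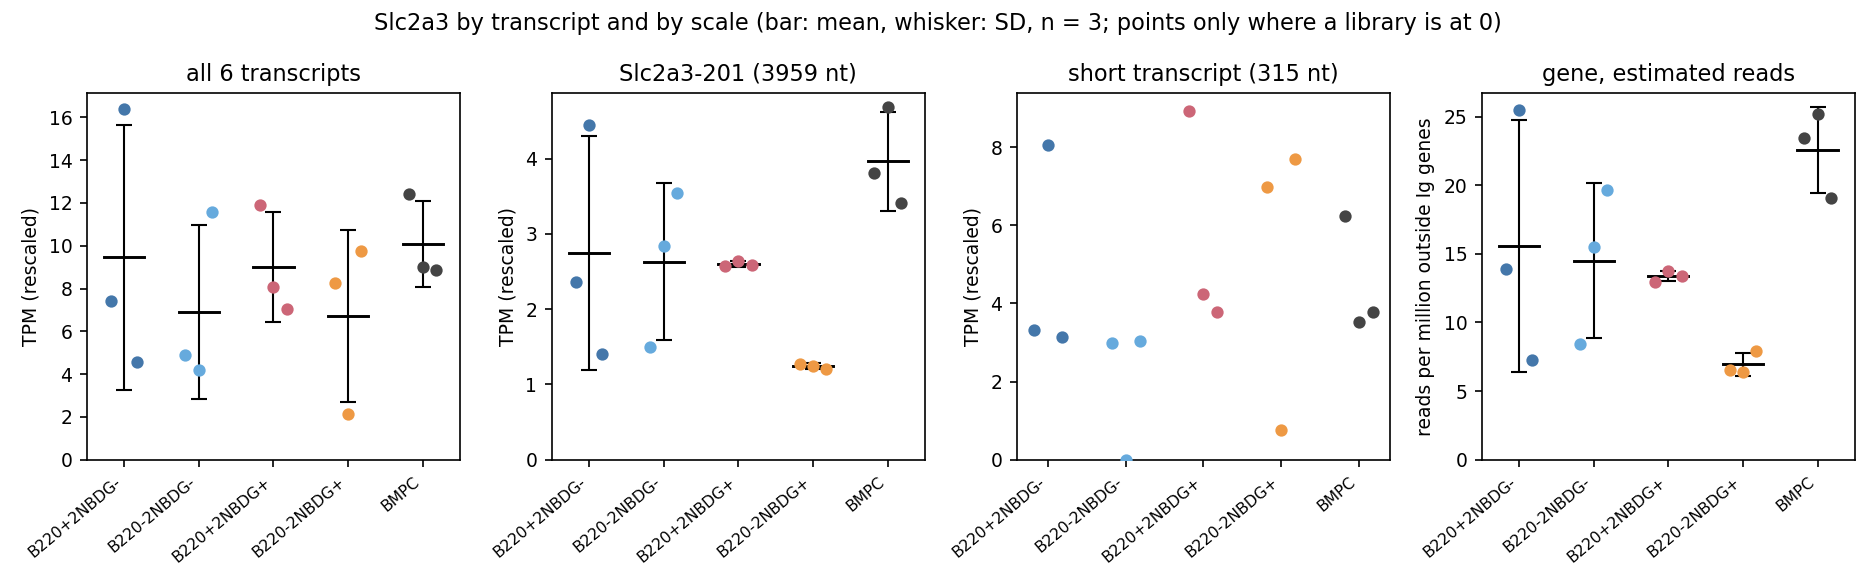
Slc2a3 in the 15 libraries as TPM of all its transcripts, TPM of the full-length and of the 315 nt transcript, and estimated reads per 1000000 outside immunoglobulin genes (points: libraries, bar: mean, whisker: SD, n = 3; points only where a library is at 0). BMPC and B220-2NBDG+ overlap in the panels of all transcripts and of the short transcript, and lie apart in those of Slc2a3-201 (3.403 to 4.69 against 1.20 to 1.28 TPM) and of estimated reads (19.1 to 25.2 against 6.42 to 7.89). Between these groups 23.7% of genes tested lie apart in TPM and 21.9% on estimated reads.

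Slc2a6 and Slc2a1 were also mixtures of transcripts, and for Slc2a6 the exon that tells the main forms apart is shown. Slc2a6-202 (1887 nt) lacks exon 8 of the 2138 nt Slc2a6-201, 162 coding bases at chr2:27023088-27023249 on the minus strand, and begins 89 bases later. The exon's length divides by 3, so leaving it out keeps the reading frame. The sequence is that of the GENCODE M21 transcript, 5′ to 3′.
Slc2a6 exon 8: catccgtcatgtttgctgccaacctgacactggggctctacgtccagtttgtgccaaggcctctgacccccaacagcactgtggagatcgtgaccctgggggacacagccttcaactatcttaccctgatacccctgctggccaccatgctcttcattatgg

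Of the TPM of these 2 forms, the one without exon 8 took 32.6%, 23.4% and 11.2% in B220+2NBDG- and 28.2%, 12.4% and 24.8% in B220-2NBDG-. It took 35.8%, 48.3% and 42.6% in B220+2NBDG+, 37.4%, 16.9% and 37.7% in B220-2NBDG+, and 24.4%, 27.6% and 56.0% in BMPC. Among B220+ cells the 2NBDG+ libraries were all above the 2NBDG- libraries, while among B220- cells they overlapped. The form with exon 8 read 9.16 to 17.5 TPM in the 6 2NBDG+ spleen libraries and 14.9 to 23.2 TPM in the 6 2NBDG- libraries. These shares were looked at after the values were seen and are given with no test. How often transcript shares separate between these groups was not counted. By gene TPM, 17.6% of genes tested had separate libraries within B220+ cells. The 343 nt Slc2a6-206 took a further 19.8% to 33.1% of the gene's TPM in group means on 1.46% to 2.58% of its reads. Between single libraries its share ran from 0% to 45.8% of the gene's TPM, on 0% to 4.17% of its reads.

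Slc2a1-204, annotated as a target of nonsense-mediated decay, is 2241 nt long, against 3260 nt of the full-length Slc2a1-201. Of the TPM of Slc2a1-201 and Slc2a1-204 it made up 56.0% to 86.8% over the 15 libraries, with group means from 68.6% ± 14.997 (SD, n = 3) in B220+2NBDG- to 76.4% ± 7.52 (SD, n = 3) in B220-2NBDG+. All 5 groups overlapped. The full-length Slc2a1-201 read 1.80 to 2.37 TPM in group means, against 4.58 to 7.22 TPM for Slc2a1-204. In estimated reads, Slc2a1-201 exceeded Slc2a1-204 in B220+2NBDG- replicate 1 (122.5 against 103.1) and in BMPC replicate 2 (62.8 against 54.6). These are Salmon's assignments of reads that the forms largely share. A 434 nt transcript, Slc2a1-205, took another 29.7% to 54.4% of the gene's TPM in group means on 3.74% to 9.58% of its reads.

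**Figure D4:**
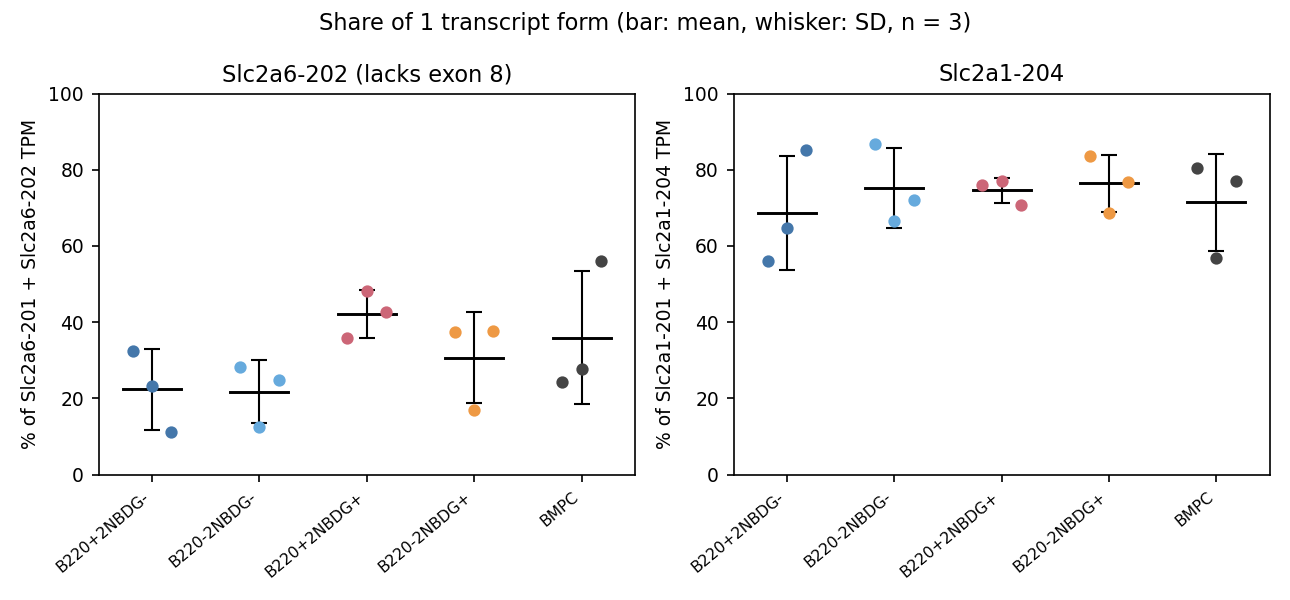
Share of Slc2a6-202 in the TPM of Slc2a6-201 and Slc2a6-202, and of Slc2a1-204 in the TPM of Slc2a1-201 and Slc2a1-204, per library on an axis from 0% to 100% (points: libraries, bar: mean, whisker: SD, n = 3). The Slc2a6 share lies between 11.2% and 56.0% and the Slc2a1 share between 56.0% and 86.8%.

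Genes around the transporters were given by lists. Of the 13 other hexose transporters, which hold the 6 other Slc2a genes and the sodium-coupled Slc5a carriers, 1 passed the filter: Slc50a1, a sugar transporter of the SWEET family. It stood at group means of 302 to 408 TPM, above every Slc2a member per length. Slc50a1 read 375 to 436 TPM in spleen B220-2NBDG+ and 291 to 310 TPM in BMPC. These libraries did not overlap, and 23.7% of genes tested had separate libraries between these groups. The Slc50a1 difference was -0.41 ± 0.10 (SE) with an adjusted p of 0.0592, and was not called. It passed with the replicate block (adjusted p = 0.0464), without B220+2NBDG- replicate 3 (0.0446) and with transcripts of at least 500 nt only (0.0357). With 2NBDG uptake its difference was 0.15 ± 0.07 (SE, adjusted p = 0.291).

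Of 25 genes for transporter trafficking and turnover, 22 were tested and 1 was called, in the B220 comparison, where 8.65% of all genes tested were called. Lnpep, the insulin-regulated aminopeptidase that travels in GLUT4 storage vesicles, was lower in B220- cells, with a difference of -0.58 ± 0.12 (SE, adjusted p = 0.00967 by limma). It read 3.10 to 4.18 and 1.88 to 2.72 TPM in the B220+ groups without and with 2NBDG uptake, and 1.59 to 2.24 and 1.11 to 1.61 TPM in the corresponding B220- groups. The Lnpep libraries were thus apart within both 2NBDG strata, as were those of 7.59% of genes tested. With 2NBDG uptake 0 of these 22 genes were called (5 at an unadjusted p under 0.05, against 20.1% of all genes), with a median of 0.07 against -0.04 for all genes. The 2 most abundant were Vamp8, a vesicle SNARE (0.24 ± 0.08, SE, adjusted p = 0.0897), and Vps29, a retromer subunit (-0.19 ± 0.11, SE, adjusted p = 0.371).

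Of 18 regulators of transporter transcription, 14 were tested and limma called 0 with 2NBDG uptake or B220 loss (2 each at an unadjusted p under 0.05), in the interaction (0) or in bone marrow (3). Of all genes tested, 20.1%, 23.6%, 5.54% and 16.8% were at that unadjusted p in these 4 comparisons. Trp53, whose product is known to repress Slc2a1 and Slc2a4, had -0.25 ± 0.11 (SE, adjusted p = 0.219) with 2NBDG uptake, and Max, the partner of MYC, 0.59 ± 0.73 (SE, adjusted p = 0.714). The Trp53 difference passed without B220+2NBDG- replicate 3 (-0.33, adjusted p = 0.0452) and on the TPM as deposited (-0.78, adjusted p = 9.3e-05). Of 13 genes for phosphorylation and release of hexoses, 8 were tested and 0 were called in the same 4 comparisons (1, 2, 1 and 0 at an unadjusted p under 0.05). Khk, ketohexokinase, which phosphorylates fructose, read 12.4 to 19.5 TPM in 2NBDG- and 15.3 to 24.6 TPM in 2NBDG+ spleen libraries, a difference of 0.39 ± 0.13 (SE, adjusted p = 0.0914). For Khk that value passed under median-of-ratios scaling (adjusted p = 0.0407), on estimated reads (0.0475), without B220+2NBDG- replicate 3 (0.0497) and without B220+2NBDG+ replicate 2 (0.0421). On the TPM as deposited Khk passed in the opposite direction, at -0.14 with an adjusted p of 0.0402. G6pc3, a glucose-6-phosphatase, had 0.07 ± 0.11 (SE, adjusted p = 0.799).

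No pair of members was closely correlated. Over the 15 libraries, Pearson's r of log2(TPM + 1) between pairs of the 5 tested members ran from -0.53 (Slc2a3 and Slc2a9) to 0.38 (Slc2a6 and Slc2a8). The genes most like a member were ranked among 5497 genes whose level reached 10 TPM in the mean of a group, as a description only, since the libraries share groups and composition. For Slc2a6 they were Apool (r = 0.88), Snrnp48 (0.82) and Tagln2 (0.79), and for Slc2a1 Ptdss1 (0.82), Mettl15 (0.78) and Capn5 (0.76). Slc2a3 had no gene above 0.64, the value of Pard6a, followed by Cmtr1 (0.61) and Rab2b (0.60). The low-level members were nearest to S100a11 (0.71) for Slc2a8 and to Zswim9 (0.72), Rnf31 (0.69) and Pced1b (0.67) for Slc2a9.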

How the data were processed

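The deposited table holds TPM for 63553 transcripts in 15 libraries, which the authors made from SMART-seq and Nextera libraries, per the labels' protocols. The submitters' processing notes name Salmon 0.9.1 and the build GRCm38.p6. The deposited lengths and effective lengths of transcripts in nt belong to no sample. GENCODE M21 lists 99.7% of the transcripts.

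TPM was summed per gene, 262 immunoglobulin genes were removed, and the rest was rescaled to 1000000. The 11246 genes that reached 1 TPM in 3 or more of the 15 libraries were tested on log2(TPM + 1) in 1 model of the 5 group means with limma 3.58.1 in R 4.3.3 (trended eBayes). A call is an adjusted p (Benjamini-Hochberg) below 0.05 within each of 9 comparisons. The method was tested on simulated data. Replicate numbers were checked for pairing by correlating deviations from group means. All 3 same-number pairs exceeded 0.1 within B220-, within 2NBDG- and within 2NBDG+ cells, 2 of 3 did within B220+, and 0 of 3 did between BMPC and spleen; the labels do not say what a number shares. Effects are on the log2(TPM + 1) scale, which understates changes of low genes.

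Reads were estimated from TPM times effective length, for which the data give a single value per transcript for all libraries. For transcripts of at least 500 nt that are their gene's only one, 72.3% to 75.0% of values up to 20 reads came out whole (tolerance 0.05), and the assumed depth was the smallest that gave nearly the best share. Shorter transcripts and those of genes with several transcripts were not checked in this way.

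The members, lists, tests and alternatives were chosen with earlier results of these data known. Lists covered the members, other hexose transporters, trafficking and turnover, regulators of transcription, hexose phosphorylation and release, and markers of plasma, B, T, erythroid, megakaryocyte and platelet cells, neutrophils, and monocytes with macrophages and dendritic cells. Named genes were the members, and from each of the 4 other lists the called genes of a comparison (up to 3) or, with none, the 2 with the highest mean TPM, and for likeness the 3 genes with the highest r (2 of them are not reported here). The alternatives numbered 25, of which 15 left out a library and 3 (coding transcripts, transcripts of at least 500 nt, estimated reads per 1000000) were chosen after seeing the data.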

Additional observations from a re-analysis of the deposited data

How the results depend on the processing

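Of 952 values of member differences under the 25 alternatives, 870 kept their direction and side of the threshold, 11 passed the threshold in the same direction and 71 turned in sign, and no member was called on leaving out any 1 library (0 to 0 members in all 9 comparisons). The members called changed on 2 scales. On TPM as deposited, 3 were called with 2NBDG uptake, 3 within B220+, 1 within B220-, 1 with B220 loss, 3 within 2NBDG- and 2 over the 5 groups. These counts include Slc2a8, whose calls are no support for a difference because of how it passed the filter. On estimated reads, 1 was called in bone marrow and 1 over the 5 groups. The deposited scale also called 8286, 7427 and 2632 of all genes for 2NBDG (on average, within B220+ and within B220-), 6861 and 6415 for B220 (on average and within 2NBDG-), 80 in the interaction, 100 in bone marrow and 8624 over all groups. Estimated reads called 1202 for 2NBDG, 582 within B220-, 1505 for B220, 1070 within 2NBDG-, 0 in the interaction, 338 in bone marrow and 3262 over all groups. With no filter on low values 141 were called within B220+, 764 within B220-, 1046 within 2NBDG- and 26 in the interaction, and with a 5 TPM filter 170 within B220- and 0 in the interaction. Fitting only the groups compared called 6 within B220+, 196 within B220-, 173 within 2NBDG- and 95 in bone marrow. In the interaction a pseudocount of 0.1 called 0 and transcripts of at least 500 nt called 1. The cause of these changes was not tested.

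The replicate block called 485 genes within B220+, 228 within 2NBDG+ and 335 in bone marrow, and changed no member's call. Same-number libraries had correlations of deviations from -0.19 to 0.41, with 16 of the 18 pairs between spleen groups above 0.1 (lowest 0.089) and 0 of the 12 pairs with BMPC. The libraries nearest to their own number were 13 of 15.

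Leaving out 1 library gave 458 to 1157 called genes for 2NBDG, 28 to 375 within B220+, 111 to 383 within B220-, 553 to 1342 for B220, 192 to 678 within 2NBDG-, 52 to 221 within 2NBDG+, 0 to 4 in the interaction, 60 to 403 in bone marrow and 1550 to 2797 over all groups. Other scalings moved the split of calls: for 2NBDG 227 genes were higher and 499 lower, against 297 and 421 with median-of-ratios and 28 and 8258 as deposited. Within B220+ the split was 117 to 130, against 77 to 7350 as deposited. For B220 it was 315 to 658, against 514 to 471 with median-of-ratios and 167 to 6694 as deposited, within 2NBDG- 306 to 283 against 243 to 6172 as deposited, and within 2NBDG+ 11 to 140 against 22 to 83 with median-of-ratios. In the interaction it was 0 to 3 against 71 to 9 as deposited, and in bone marrow 116 to 100 against 194 to 35 with median-of-ratios and 98 to 2 as deposited.

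The sign turned as follows. As deposited, Slc2a1 had -0.28 for 2NBDG, -0.27 within B220+, -0.051 for B220, -0.040 within 2NBDG-, -0.063 within 2NBDG+ and 0.049 in bone marrow. Slc2a3 had -0.30 within B220+ and 0.17 in the interaction, Slc2a6 0.22 in the interaction, and Slc2a9 -0.049 for 2NBDG and -0.042 for B220. For 2NBDG, Slc50a1 had -0.54, Vamp8 -0.44, Max -0.22, G6pc3 -0.39 and Khk -0.14 as deposited. On coding transcripts, Slc2a1 had -0.13 for 2NBDG and 0.059 in bone marrow, Slc2a3 -0.013 within B220+ and 0.16 within 2NBDG-, Slc2a9 -0.051 for B220 and Slc2a8 0.22 within 2NBDG+. With median-of-ratios, Slc2a3 had 0.024 for 2NBDG, Slc2a8 0.046 within 2NBDG+ and Slc2a1 0.062 in bone marrow. On estimated reads, Slc2a9 had -0.15 for 2NBDG, -0.20 within B220-, -0.043 for B220, 0.0074 within 2NBDG-, -0.093 within 2NBDG+, -0.10 in the interaction and 0.10 in bone marrow, Slc2a3 -0.048 within B220+, Slc2a1 0.018 within B220-, and Slc2a8 0.13 for B220, 0.047 within 2NBDG- and 0.21 within 2NBDG+. With a pseudocount of 0.1, Slc2a9 had -0.018 for B220 and Slc2a8 0.021 within 2NBDG+, and with transcripts of at least 500 nt Slc2a3 had -0.15 within B220+ and Slc2a1 -0.069 within 2NBDG+.

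Leaving out 1 library spanned both signs for Slc2a1 for 2NBDG (-0.050 to 0.14), within B220- (-0.27 to 0.076) and within 2NBDG+ (-0.011 to 0.37). It did so for Slc2a3 for 2NBDG (-0.20 to 0.26), within B220+ (-0.30 to 0.52), within B220- (-0.44 to 0.45), within 2NBDG- (-0.75 to 0.10), within 2NBDG+ (-0.86 to 0.026) and in the interaction (-0.62 to 0.38). The others were Slc2a6 in bone marrow (-0.028 to 0.63), Slc2a8 within 2NBDG+ (-0.13 to 0.074), Slc2a9 for 2NBDG (-0.12 to 0.26), for B220 (-0.19 to 0.18), within 2NBDG+ (-0.016 to 0.73) and in bone marrow (-0.61 to 0.13), and Max for 2NBDG (-0.11 to 1.26). Depth limits Slc2a4 and Slc2a8, which rest on at most 2 and 19 estimated reads per library, and Slc2a8 failed the filter in 3 of the 15 fits that left out a library.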
